A study of Homo sapiens with 6 samples.

Results

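The accessible regions around NODAL, LEFTY1, LEFTY2, GDF3, TDGF1, CER1 and FOXH1 were compared between sorted populations of human embryonic stem cells. A region belonged to a locus when its midpoint lay in a fixed window of the hg19 assembly. The windows, in megabases, were 72.17 to 72.22 on chromosome 10 for NODAL, 226.05 to 226.15 on chromosome 1 for LEFTY1 and LEFTY2 together, 7.83 to 7.855 on chromosome 12 for GDF3, 46.59 to 46.65 on chromosome 3 for TDGF1, 14.70 to 14.74 on chromosome 9 for CER1 and 145.68 to 145.72 on chromosome 8 for FOXH1. They held 28 of the 118556 regions in the table: 4 at NODAL, 10 at LEFTY1/LEFTY2, 3 at GDF3, 7 at TDGF1, 1 at CER1 and 3 at FOXH1. Within a window every region was taken by position, whatever its counts; the genes themselves were chosen with earlier results of these data known.

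WA09 (H9) is an established human embryonic stem cell line. All samples came from this single line, so line-to-line variation was not measured. Cells were separated by flow cytometry on the antibody GCTM-2, which binds a surface proteoglycan of pluripotent cells, and on CD9. The high population was labelled GCTM-2highCD9highEPCAMhigh and the mid population GCTM-2midCD9mid; some labels name the latter low. There were 3 replicates of each population, and the labels name no treatment or genetic change in either. Open chromatin was profiled by FAST-ATAC, a method that tags accessible DNA with adapters carried by a transposase. Each value below starts from the number of reads in a region, written as CPM (the count divided by the size of its library, scaled by TMM), or as a log2 fold change of high over mid, so that a negative value means more reads in the mid population.

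NODAL is a secreted ligand of the TGF-beta family. It binds activin receptors together with the co-receptor encoded by TDGF1 (CRIPTO), and the signal passes through SMAD2 and SMAD3 to DNA, where FOXH1 recruits them to target genes. GDF3 encodes a related ligand. LEFTY1, LEFTY2 and CER1 encode secreted antagonists, and the LEFTY genes and NODAL itself are well-known targets of the pathway. Activin and NODAL signalling helps to keep human pluripotent stem cells undifferentiated, and in the embryo it patterns mesoderm and endoderm.

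The gene order of the RefSeq annotation of GRCh38 places NODAL between EIF4EBP2 and PALD1. GDF3 lies between APOBEC1 and DPPA3, TDGF1 between LRRC2-AS1 and FAM240A, CER1 between ZDHHC21 and FREM1, and FOXH1 between KIFC2 and PPP1R16A. The counts are on hg19, for which no annotation was used, so a region was not assigned to an exon, an intron, a UTR or a start site. A region in a window may therefore lie at a neighbouring gene. LEFTY1 and LEFTY2 are near-identical paralogs, and TDGF1 has processed pseudogenes elsewhere in the genome. Whether reads that map to several places were kept is not given in the sources used here, so counts at these loci are uncertain where copies share sequence.

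Promoter sequences are shown for the loci whose ligand, co-receptor or antagonist the regions surround, because FOXH1, SMAD, OCT4 and SOX2 act through short DNA motifs. RefSeq promoters on GRCh38.p14 were matched by symbol for 4 of the 7 genes, NODAL, GDF3, TDGF1 (as CRIPTO, with 2 start sites) and CER1. LEFTY1, LEFTY2 and FOXH1 are named only. Each sequence below is the 250 bases before the start site, 5′ to 3′ on the strand of the gene, and capitals mark a match to a searched motif. The intervals are chr10:70441682-70441931 (minus strand) for NODAL, chr12:7695776-7696025 (minus) for GDF3, chr3:46574285-46574534 and chr3:46577538-46577787 (plus) for the start sites of TDGF1, and chr9:14722734-14722983 (minus) for CER1. They carry GRCh38 positions and were not laid over the hg19 regions.
NODAL: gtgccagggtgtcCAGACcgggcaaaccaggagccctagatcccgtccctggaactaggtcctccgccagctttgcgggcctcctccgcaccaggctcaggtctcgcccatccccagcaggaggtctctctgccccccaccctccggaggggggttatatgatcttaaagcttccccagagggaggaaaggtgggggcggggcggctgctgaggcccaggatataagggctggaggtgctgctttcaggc
GDF3: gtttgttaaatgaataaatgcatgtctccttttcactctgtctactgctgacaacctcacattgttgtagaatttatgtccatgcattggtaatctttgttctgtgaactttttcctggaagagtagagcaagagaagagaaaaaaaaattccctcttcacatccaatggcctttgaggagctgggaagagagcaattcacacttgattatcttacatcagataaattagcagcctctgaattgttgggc
TDGF1 start site 1: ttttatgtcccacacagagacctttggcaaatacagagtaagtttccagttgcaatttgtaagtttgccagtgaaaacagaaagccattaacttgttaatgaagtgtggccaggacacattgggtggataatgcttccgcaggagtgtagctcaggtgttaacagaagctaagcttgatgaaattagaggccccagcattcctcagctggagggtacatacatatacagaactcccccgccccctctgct
TDGF1 start site 2: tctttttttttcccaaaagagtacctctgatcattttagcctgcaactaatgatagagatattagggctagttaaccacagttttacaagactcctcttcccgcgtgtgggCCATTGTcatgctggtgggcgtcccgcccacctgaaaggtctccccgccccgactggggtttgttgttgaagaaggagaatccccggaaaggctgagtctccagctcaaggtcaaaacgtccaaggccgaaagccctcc
CER1: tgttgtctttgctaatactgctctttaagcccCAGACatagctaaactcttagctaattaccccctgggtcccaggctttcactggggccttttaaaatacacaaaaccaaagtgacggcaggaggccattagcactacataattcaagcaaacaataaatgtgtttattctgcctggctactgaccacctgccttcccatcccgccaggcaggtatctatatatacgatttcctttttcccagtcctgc

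The motifs searched on both strands were AATCCACA (FOXH1), GTCTAGAC (SMAD palindrome), CAGAC (SMAD element), ATGCAAAT (octamer), ACAATGG (SOX) and the core promoter motif TATAAA. The SMAD element occurred once in the NODAL sequence, with its first base at position -237 from the start, and once in the CER1 sequence, at -218. It was also found in 38% of all 35116 promoters in the table. The second start site of TDGF1 held the SOX motif on the reverse strand, as CCATTGT, at -139, and 2.62% of promoters held that motif. None of these 5 sequences contained the FOXH1 motif (0.709% of promoters), the SMAD palindrome (0.182%), the octamer (1.63%) or TATAAA (10.7%). The promoters also differed in base composition, with a GC content of 65.2% at NODAL, 38.4% at GDF3, 45.6% and 51.2% at TDGF1 and 45.2% at CER1. The NODAL sequence held 9 CpG dinucleotides and that of GDF3 held 0. A match or its absence describes the letters of these windows only.

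Total counts lay between 15486251 and 26225539 in the high libraries and between 23091028 and 29025274 in the mid libraries. The 28 regions had between 13 and 3023 reads per sample, so the weakest of them carry a wide counting error. Regions near the pluripotency and sorting genes POU5F1, SOX2, DNMT3B, CD9 and EPCAM were present in both populations. Of 18 such regions, 2 were called, at POU5F1 (5123 bp) and DNMT3B (4970 bp), both with more reads in the mid population. Both belonged to the class of at least 4000 bp. Toward mid, 40.7% of that class and 3.77% of the whole table were called. At an unadjusted p under 0.05 in edgeR, 0 of the 18 were higher in high and 8 higher in mid, against 14.2% and 13.6% of the table. Their median log2 fold change was -0.25, and 15 of the 18 were negative (46.5% of the table). Of 10 regions at PAX6 (neural), T (mesoderm) and SOX17 (endoderm), 0 were called by edgeR. At an unadjusted p under 0.05 in edgeR, 1 had more reads in the high population and 2 had more in the mid population. The shares over the whole table were 14.2% and 13.6%. Fewer cells with an open region and less accessibility per cell cannot be told apart in these bulk samples.

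In the windows of 5 of the 7 genes no region passed the test for a difference between the populations. The edgeR quasi-likelihood test ran over all regions, with the replicate number as a block and a Benjamini-Hochberg adjusted p under 0.01. By it, 0 of the 28 regions had more reads in the high population and 2 (7.14%) had more in the mid population. Of these 2, 1 lay in the TDGF1 window and 1 in the FOXH1 window. Over the whole table, 2.32% of regions were called toward high and 3.77% toward mid. At an unadjusted p under 0.05 there were 0 regions toward high and 7 toward mid, where the table had 14.2% and 13.6%. The median log2 fold change of the 28 regions was -0.15, against 0.03 for all regions, and 17 of the 28 were negative (46.5% of the table). With loess offsets on region width in place of TMM, the median of the 28 was 0.02 and 13 were negative. The groups overlapped in 22 of the 28 regions, and in 87818 of the 118556 regions of the table. All high samples lay above all mid samples in 1 region (12.9% of the table) and below them in 5 (13% of the table). By read density, 21 of the 28 regions lay above the 50th percentile of the table.

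**Figure D1:**
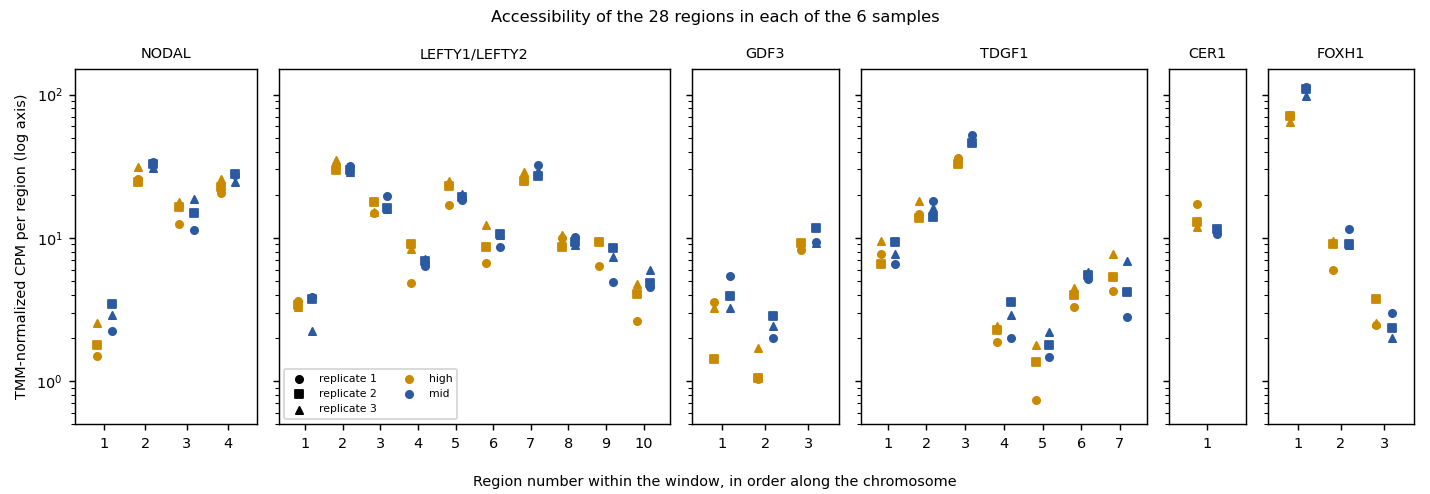
TMM-normalized CPM of each of the 28 regions (log axis) in the 3 high (orange) and 3 mid (blue) samples, with the marker shape giving the replicate. FOXH1 region 1 is the region with the most reads and its high samples, at 64.3 to 71.8 CPM, lie below its mid samples, at 98.1 to 113.5 CPM. The groups overlap in 22 of the 28 regions, and in 87818 of the 118556 regions of the table.

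Of the ligands, NODAL showed no called change. Its window held 4 regions, and the region with the most reads and the highest read density, region 2 (chr10:72199419-72203180, 3762 bp), had 25.9, 24.4 and 31.1 CPM in high replicates 1 to 3 and 33.6, 32.8 and 30.5 CPM in mid replicates 1 to 3. High replicate 3 lay among the mid samples, so the groups overlapped. The log2 fold change was -0.25 (SE 0.13, 95% interval -0.52 to 0.01, adjusted p = 0.199, edgeR quasi-likelihood test), and it was 0.028 with loess offsets on region width. Region 1 (chr10:72190046-72190739), a weak region of 694 bp, had the smallest p-value of the window. Its values were 1.48, 1.78 and 2.56 CPM in the high samples and 2.25, 3.46 and 2.87 CPM in the mid samples. Each same-numbered pair was lower in high, yet the fold change of -0.55 (SE 0.26, 95% interval -1.06 to -0.03) had an adjusted p of 0.149 in edgeR. The remaining pair of regions lay next to each other. Region 3 (chr10:72214682-72216794) had a log2 fold change of 0.07 (95% interval -0.23 to 0.37), and region 4 (chr10:72217383-72221728, 4346 bp) of -0.21 (95% interval -0.48 to 0.06). Region 4 was the only region of at least 4000 bp among the 28 that was not called. Summed over the window, NODAL had 67.7 ± 8.73 CPM in high and 76.7 ± 2.12 CPM in mid (SD, n = 3 each). The log2 differences of the same-numbered sums were -0.31, -0.28 and 0.02, so replicate 3 showed almost none of the difference seen in the other pairs.

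GDF3 had the lowest read density of the loci, and its 3 regions all had negative fold changes, with 0 called by edgeR and 2 at an unadjusted p under 0.05. In the whole table, 46.5% of regions were negative, 3.77% were called toward mid and 13.6% were toward mid at that unadjusted p. Region 2 (chr12:7834032-7834558, 527 bp) held 1.03, 1.05 and 1.70 CPM in the high samples and 1.99, 2.86 and 2.41 CPM in the mid samples. All high samples lay below all mid samples. The log2 fold change of -0.92 was the most negative of the 28 regions, but with few reads its error was large (SE 0.30, 95% interval -1.51 to -0.33), and its adjusted p of 0.0285 in edgeR was above the threshold. Region 1 (chr12:7829854-7830691) had 3.54, 1.41 and 3.22 CPM in high and 5.37, 3.94 and 3.26 CPM in mid. High replicate 2 was the lowest sample and mid replicate 3 lay within the high range. Its fold change was -0.62 (SE 0.23, adjusted p = 0.0638 in edgeR); without high replicate 3 it was -0.95 and without mid replicate 3 it was -0.96, with adjusted p of 0.00984 and 0.00945. Without high or mid replicate 2 it was -0.31 in both fits. Region 3 (chr12:7846309-7848263, 1955 bp), the strongest of the window, had 8.16, 9.17 and 8.78 CPM in high and 9.39, 11.6 and 9.20 CPM in mid. These groups did not overlap, though the difference was small, with a log2 fold change of -0.20 (SE 0.17, 95% interval -0.54 to 0.14, adjusted p = 0.453 in edgeR). The summed signal was 12.7 ± 1.04 CPM in high and 16.7 ± 1.78 CPM in mid, and the paired log2 differences were -0.40, -0.67 and -0.12.

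The antagonist genes LEFTY1 and LEFTY2 shared a window of 10 regions, the largest number at any of the loci, and 0 of them were called by edgeR. In the whole table, 2.32% of regions were called toward high and 3.77% toward mid. At an unadjusted p under 0.05 there were 0 of the 10 toward high and 1 toward mid, where the table had 14.2% and 13.6%. The fold changes ran from -0.44 to 0.30, with 6 positive and 4 negative and a median of 0.07. The groups overlapped in all 10 regions, and in 87818 of the 118556 regions of the table. Region 2 (chr1:226068446-226071438, 2993 bp) had the most reads, with 31.9, 29.9 and 34.7 CPM in high and 31.6, 29.5 and 28.9 CPM in mid. Replicates 1 and 2 were almost the same in both populations, and high replicate 3 was the highest sample. The log2 fold change was 0.10 (SE 0.13, 95% interval -0.16 to 0.36, adjusted p = 0.645 in edgeR), which leaves room for a change of up to 0.36 on the log2 scale.

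Region 7 of the same window (chr1:226111025-226112870, 1846 bp) was the densest of all 28 regions, with 14.2 CPM per kb in high and 16.1 CPM per kb in mid, at the 96.9th percentile of the table. Its samples held 24.8, 25.1 and 28.7 CPM in high and 32.3, 27.1 and 29.5 CPM in mid. High replicate 3 lay above mid replicate 2, and the fold change was -0.18 (SE 0.13, 95% interval -0.44 to 0.09, adjusted p = 0.397 in edgeR). Region 5 (chr1:226086012-226087955) had a mean density of 10.5 CPM per kb, close to the 10.4 of region 2, with 16.9, 22.9 and 25.04 CPM in high and 18.3, 19.3 and 20.3 CPM in mid. Here high replicate 1 was the lowest sample and high replicate 3 the highest, and the mid samples lay between them. The fold change was 0.15 (95% interval -0.13 to 0.43).

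The regions furthest along the window had fold changes of opposite sign, neither of which passed the threshold. Region 9 (chr1:226132757-226134220) had 6.39, 9.29 and 9.56 CPM in high and 4.92, 8.44 and 7.32 CPM in mid. All 3 same-numbered pairs were higher in high, as in 25.3% of all regions, and the fold change was 0.30 (95% interval -0.05 to 0.65, adjusted p = 0.267 in edgeR). Region 10 (chr1:226138284-226139230, 947 bp) had 2.62, 4.06 and 4.74 CPM in high and 4.54, 4.80 and 5.94 CPM in mid. All 3 pairs were lower in high, as in 22.4% of all regions. Its fold change was -0.44 (SE 0.20, 95% interval -0.84 to -0.03), with an unadjusted p of 0.0354 and an adjusted p of 0.145 in edgeR. Summed over the window, the high population had 138.0 ± 14.99 CPM and the mid population 137.5 ± 2.42 CPM (SD, n = 3 each). The paired log2 differences were -0.20, 0.03 and 0.16, so the replicates differed more from each other than the populations did.

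CER1 encodes a secreted antagonist that binds NODAL, and its window held a single region (chr9:14721947-14723280, 1334 bp). It had 17.2, 12.8 and 11.9 CPM in high and 10.6, 11.6 and 11.4 CPM in mid. It was the only member region in which every high sample exceeded every mid sample. The margin was 0.70, 0.15 and 0.06 on the log2 scale in pairs 1, 2 and 3, so most of it came from replicate 1. The fold change was 0.30 (SE 0.16, 95% interval -0.02 to 0.63) with an adjusted p of 0.212 in edgeR. Without high replicate 1 it was 0.08, and without mid replicate 1 it was 0.10. Read density was 10.5 CPM per kb in high and 8.39 in mid.

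The co-receptor locus TDGF1 held 7 regions, of which 1 was called. Region 3 (chr3:46615009-46619673, 4665 bp) had 36.2, 32.9 and 36.3 CPM in the high samples and 52.2, 46.3 and 47.4 CPM in the mid samples. All high samples lay below all mid samples by a clear gap. Its log2 fold change was -0.47 (SE 0.12, 95% interval -0.71 to -0.22, adjusted p = 0.00736 in edgeR), and the paired differences were close to each other, at -0.53, -0.49 and -0.38. Without the replicate block the adjusted p was 0.0444. The call was also lost without high replicate 2 (adjusted p = 0.189), without mid replicate 2 (0.245) and without mid replicate 3 (0.0101), while the fold change stayed between -0.51 and -0.44 over all fits that left out a sample or a pair. With loess offsets on average log2 CPM it was -0.24 (adjusted p = 0.142 in edgeR) and on region width -0.12 (adjusted p = 0.498 in edgeR).

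The other regions at TDGF1 were weaker. Region 2 (chr3:46606486-46608341) had 14.7, 13.7 and 18.0 CPM in high and 18.1, 14.02 and 16.3 CPM in mid, with a fold change of -0.06 (95% interval -0.36 to 0.24). Region 6 (chr3:46640769-46641797) had 3.31, 3.999 and 4.44 CPM in high and 5.18, 5.50 and 5.79 CPM in mid. Its groups did not overlap and its fold change was -0.49 (SE 0.20, 95% interval -0.88 to -0.09, adjusted p = 0.0902 in edgeR). Region 7 (chr3:46648853-46649746), at the far end of the window, was higher in high in all 3 pairs, with 4.22, 5.29 and 7.74 CPM in high and 2.82, 4.20 and 6.90 CPM in mid. The replicates of each population differed more than the populations, and the fold change was 0.34 (SE 0.19, adjusted p = 0.248 in edgeR). Regions 1, 4 and 5 had fold changes of 0.02, -0.33 and -0.51, and the groups overlapped in each. Summed over the window, TDGF1 had 71.7 ± 7.48 CPM in high and 87.4 ± 2.39 CPM in mid, with paired log2 differences of -0.36, -0.36 and -0.15.

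The window of FOXH1, the transcription factor of the set, held the region with the smallest adjusted p of the 28 under TMM. That region was not assigned to a gene and may lie at a neighbour of FOXH1. Region 1 (chr8:145687257-145694253) was 6997 bp wide, wider than 99.9% of all regions, and held 71.8, 71.1 and 64.3 CPM in the high samples against 113.5, 109.2 and 98.1 CPM in the mid samples. No high sample came near a mid sample. The log2 fold change was -0.63 (SE 0.11, 95% interval -0.86 to -0.40, adjusted p = 7.79e-05 in edgeR), and the 3 pairs gave -0.66, -0.62 and -0.61. With loess offsets on average log2 CPM the fold change was -0.30 (adjusted p = 0.0364 in edgeR) and on region width -0.17 (adjusted p = 0.262 in edgeR), and the call was lost in both. Without high or mid replicate 2 the fold change was -0.63 in both fits but the adjusted p rose to 0.0252 and 0.0559, in fits that called 431 and 371 regions toward high and 839 and 432 toward mid over the whole table. Region 2 (chr8:145709114-145710479) had a fold change of -0.26 (95% interval -0.63 to 0.10) and region 3 (chr8:145711554-145712200) of 0.26 (95% interval -0.23 to 0.75). In both, pair 1 was lower in high and pairs 2 and 3 were higher. The sum over the window, 80.2 ± 3.77 CPM in high and 119.2 ± 9.58 CPM in mid, followed region 1.

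**Figure D2:**
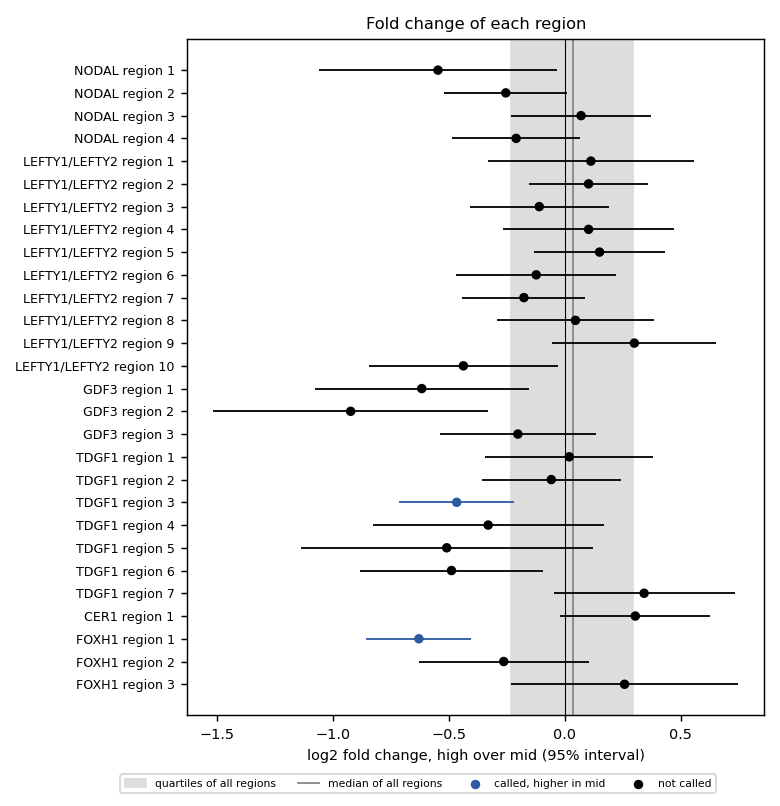
Log2 fold change (high over mid) of each region as a point with its 95% interval from edgeR, with the quartiles (-0.23 and 0.29, grey band) and the median (0.03, grey line) of all 118556 regions. The intervals of TDGF1 region 3 and FOXH1 region 1, called at an adjusted p under 0.01, are drawn in blue; the 10 LEFTY1/LEFTY2 regions lie between -0.44 and 0.30.

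**Figure D3:**
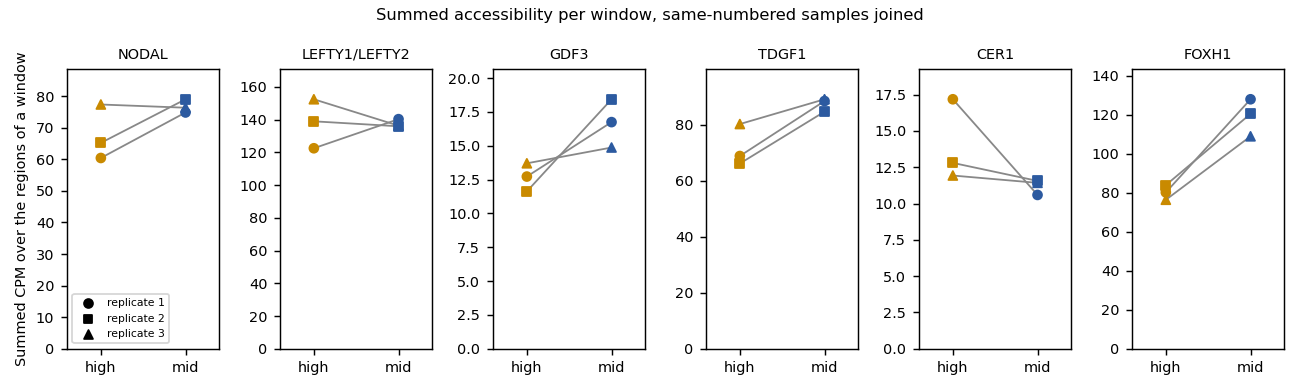
CPM summed over the regions of each window (linear axes from 0, a separate scale for each window), with same-numbered high and mid samples joined by a line. FOXH1, TDGF1 and GDF3 are lower in high in all 3 pairs, CER1 is higher in all 3, and the lines of NODAL and LEFTY1/LEFTY2 do not all slope the same way.

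NODAL and the LEFTY genes together had 14 regions. The groups overlapped in all of them, and in 87818 of the 118556 regions of the table. Of the 14 fold changes, 7 were positive and 7 negative, and the median was -0.03. With loess offsets on region width, 4 were negative and the median was 0.08. At the other 4 loci the medians were -0.62 for GDF3, -0.33 for TDGF1, -0.26 for FOXH1 and 0.30 for the single region at CER1. These medians are descriptions of small numbers of regions and were not tested against each other.

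Read density ordered the strongest region of each locus as follows. LEFTY1/LEFTY2 region 7 (15.1 CPM per kb, mean over the 6 samples) and FOXH1 region 1 (12.6 CPM per kb) were the densest. The gap between them was wider in high, at 14.2 against 9.88 CPM per kb, than in mid, at 16.1 against 15.3. CER1 (9.43 CPM per kb), TDGF1 region 3 (8.98) and NODAL region 2 (7.90) followed. CER1 was denser than TDGF1 region 3 in high (10.5 against 7.54 CPM per kb) and less dense in mid (8.39 against 10.4). GDF3 region 3 came last, with 4.80 CPM per kb, at the 57.0th percentile of all regions. The weakest member by density was TDGF1 region 5, with 3.21 CPM per kb, at the 11.5th percentile.

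Both called regions belonged to the widest class of the table. Of the 1804 regions of at least 4000 bp, 40.7% were called toward mid and 0.443% toward high, and their median log2 fold change was -0.38. Of the members, 3 were that wide, and 2 of these were the called regions. The 25 narrower members had 0 calls by edgeR, with 0 toward high and 5 toward mid at an unadjusted p under 0.05. Of all 116752 regions under 4000 bp, 2.35% were called toward high and 3.20% toward mid. At an unadjusted p under 0.05 in edgeR, 16770 of these were toward high and 14970 toward mid. With shares this low, 0 calls among 25 regions does not set the narrower members apart. TDGF1 region 3 (-0.47) and FOXH1 region 1 (-0.63) both lay inside the range that held the middle 80% of regions of at least 4000 bp, -0.75 to 0.07. In all, 23 of the 28 members lay inside the corresponding range for their width. The 5 outside it were NODAL region 1, LEFTY1/LEFTY2 region 10, GDF3 regions 1 and 2 and TDGF1 region 6. They were 527 to 1029 bp wide, all lower in high and none called. With loess offsets on region width in place of TMM, neither called region passed the threshold.

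**Figure D4:**
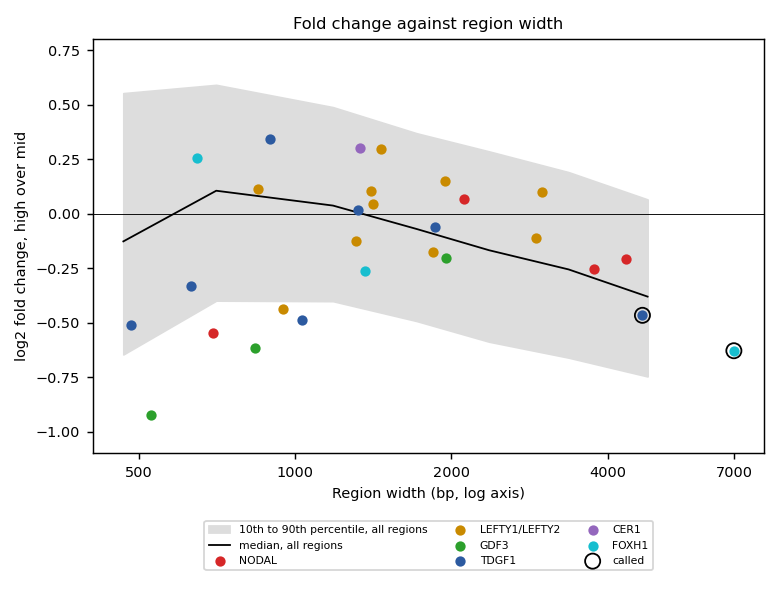
Log2 fold change (high over mid) of the 28 member regions against region width (log axis), coloured by locus, over the median (line) and the 10th to 90th percentile (grey) of all regions in 7 width classes, drawn at the median width of each class. The 2 called regions (circled) are at 4665 and 6997 bp, and the median of all regions falls from 0.11 at 500 to 1000 bp to -0.38 at 4000 bp and above.

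Regions within 500 kb outside the windows gave the local background. There were 325 of them, with 4 called toward high (1.23%) and 22 toward mid (6.77%) and a median log2 fold change of -0.13. Around FOXH1, 11 of 55 neighbouring regions (20%) were called toward mid, 51 of the 55 were negative and the median was -0.37. The FOXH1 window thus lay in a stretch of chromosome 8 in which most regions had more reads in the mid population. Around GDF3, 5 of 45 were called toward mid and the median was -0.28. Around CER1 most neighbours had the opposite sign, with 47 of 55 positive and a median of 0.22, and 2 were called toward high and 1 toward mid. The medians were -0.16 around NODAL (60 regions, 2 called toward mid), -0.07 around LEFTY1/LEFTY2 (62 regions, 1 toward high and 2 toward mid) and -0.11 around TDGF1 (48 regions, 1 each way). In every window the median had the same sign as that of its neighbours except at LEFTY1/LEFTY2, where it was 0.07. The part of region width or of the surrounding chromosome in the member differences was not tested.

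Other genes of the pathway were examined through 25 windows, which held 119 regions. Of these, 1 was called toward high (0.840%) and 11 toward mid (9.24%), against 2.32% and 3.77% of the whole table, with a median log2 fold change of -0.16. Among 36 regions at receptor genes, 1 was called each way. TGFBR2, the type II receptor for TGF-beta, had a region (chr3:30647097-30649312) with 39.0, 32.5 and 32.0 CPM in high and 27.2, 20.04 and 24.1 CPM in mid, a fold change of 0.54 (SE 0.13, adjusted p = 0.00332 in edgeR). ACVR1B, which encodes the type I receptor ALK4 that NODAL and activin use, had a region (chr12:52344642-52346874) with 20.3, 20.7 and 20.4 CPM in high and 35.6, 31.1 and 29.7 CPM in mid. The groups were well separated there and the fold change was -0.64 (SE 0.13, adjusted p = 0.000602 in edgeR).

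At the transducers, 4 of 39 regions were called, all toward mid, where 3.77% of the whole table was called toward mid. They lay at SMAD2 (-0.59), a receptor-activated SMAD, at SMAD4 (-1.71), the common partner SMAD, and in a pair of regions at TGIF1 (-0.58 and -0.66), a co-repressor of SMADs. The SMAD4 region (chr18:48575365-48576013) was weak, with 1.26, 1.29 and 0.667 CPM in high and 5.37, 2.99 and 2.30 CPM in mid. At other ligands, processing enzymes and inhibitors, 3 of 33 regions were called, all toward mid. They were at PCSK6 (-0.74), a protease that cleaves NODAL family precursors, and in 2 regions at DAND5 (-0.67 and -0.77), an antagonist related to CER1. At the targets, 3 of 11 regions were called toward mid, at GSC (-0.51) and PMEPA1 (-0.58 and -0.92). The GSC region (7526 bp), the PMEPA1 region at -0.58 (4179 bp) and the TGIF1 region at -0.58 (5805 bp) belonged to the class of at least 4000 bp, in which 40.7% of all regions were called toward mid. In all, 9 of the 25 loci had a called region, and those without any included SMAD3, SMAD7, ACVR2A, ACVR2B and EOMES. Over the whole list of 119 regions, 9 had an unadjusted p under 0.05 in edgeR toward high and 26 toward mid. The shares over the whole table were 14.2% and 13.6%.

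**Figure D5:**
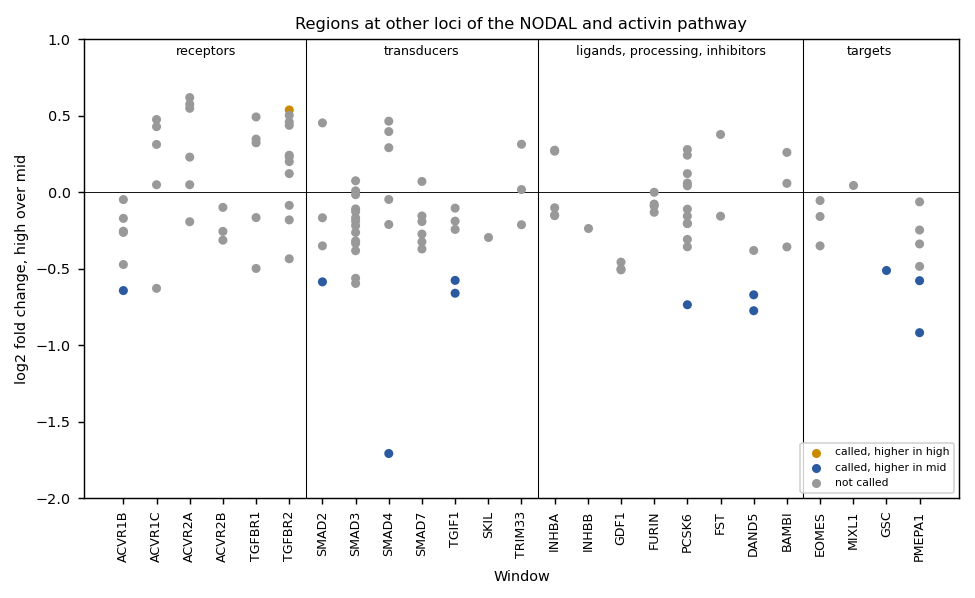
Log2 fold change (high over mid) of each of the 119 regions at 25 other loci of the NODAL and activin pathway, grouped by role. The 11 regions called toward mid (blue) lie at 8 loci, the 1 called toward high (orange) is at TGFBR2, and the lowest point, at -1.71, is the SMAD4 region.

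The course of each summed signal over the 6 samples was compared with 38 other windows, as the root mean square difference of the centred log2 sums. NODAL was most like TDGF1 (0.0845), followed by SMAD3 (0.0973) and CD9 (0.0984). TDGF1 was most like SMAD3 (0.0449), then NODAL (0.0845) and EPCAM (0.0896). LEFTY1/LEFTY2 was closest to FURIN (0.0799), NODAL (0.106) and CD9 (0.110). The LEFTY1/LEFTY2 sum itself varied by a root mean square of 0.0925 around its mean, so its nearest window differed from it by almost as much as a flat line would. All windows share the same 6 libraries and their scaling, and these values are descriptions.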

How the data were processed

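Raw read counts of 118556 hg19 regions in 6 FAST-ATAC samples were used as deposited. The authors trimmed reads with trimmomatic, aligned them with bwa (0.7.15) and used Picard against duplicates. Reads were moved to where Tn5 cut. MACS was run on alignments pooled over replicates, the 2 region sets were merged, blacklisted regions were dropped and bedtools counted the reads. Pooled calling hides how often single replicates showed a region, and a wide merged region holds more reads, which makes its error smaller. Treatment of reads that map to several places is not given in the sources used here. Region starts were raised by 1, since the table was read as counting from 0.

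Counts were tested with edgeR 4.0.16 in R 4.3.3 (TMM, quasi-likelihood F test, no filter, all regions, Benjamini-Hochberg adjustment, threshold 0.01), with the replicate number as a block of 3 levels. Each SE is the absolute fold change over the square root of F, and 95% intervals use the moderated degrees of freedom. CPM is TMM-normalized. limma 3.58.1 gave the loess offsets (span 0.3) and DESeq2 1.42.0 an alternative test. The model was also run on counts simulated from its own fitted spread, which cannot show whether that spread is right for these data. The labels give each replicate number once per population, and the numbers were taken as pairs. Deviations from the population means correlated at r = 0.302, 0.191 and 0.234 in same-numbered pairs and at -0.257 to 0.0599 in the others. Such deviations sum to 0 within a population, so positive values in same-numbered pairs lower the others. The contrast is therefore no separate evidence of pairing. The methods call the replicates biological. P-values measure the spread between these samples.

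Depth is the total count per sample, 15486251 to 29025274; counting error of single regions is part of the fit.

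In each window the regions named were the strongest by CPM and by CPM per kb, the one with the smallest p-value and any called region, 10 in all; of the pathway list, loci with a called region, at most 10. Other regions printed with values were chosen after their values were seen. The pathway and marker windows were written from general knowledge of hg19 and not checked against an annotation of that build; 1 window of the pathway list is not reported here and was left out of the counts. Members and lists were chosen with earlier results of these data known. Alternatives covered the block, batch coding, test, scaling, filters, threshold, window membership and each pair and sample left out.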

Additional observations from a re-analysis of the deposited data

How the results depend on the processing

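The count of member regions called toward high was 0 under every alternative run. The count toward mid, 2 as reported, was 1 with no replicate block and 1 with total counts only (TDGF1 region 3 lost, with adjusted p of 0.0444 and 0.0197), and 0 with loess offsets on average log2 CPM and 0 with loess offsets on region width. Over fits that left out a sample or a pair it ran from 0 to 3. It was 0 without high replicate 2, without mid replicate 2 and without both, and 3 without high replicate 3 or the replicate 3 pair, where GDF3 region 1 was added. The cause was not tested. Under the same loess fits FOXH1 region 1 was -0.30 and -0.17. The fold change of NODAL region 2 reversed to 0.028 with loess offsets on region width, and the summed log2 difference of FOXH1 was -0.48 with total counts only, against -0.57. The summed difference of LEFTY1/LEFTY2, close to 0, was 0.09 with total counts only and 0.07 without replicate 1; the other summed differences and named fold changes kept their sign under each alternative run. Leaving out replicate 3 turned the LEFTY1/LEFTY2 median to -0.09, and leaving out replicate 1 turned the FOXH1 median to 0.04. With loess offsets on region width the NODAL median was 0.07. Among the 28 members the replicate block changed no call other than that of TDGF1 region 3; pathway and marker calls are given with the block only.

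Over the whole table, 2747 regions were called toward high and 4472 toward mid. With no replicate block these were 280 and 1312, at a threshold of 0.05 they were 7145 and 8391, with DESeq2 (58794 regions given an adjusted p) 990 and 3776, and without replicate 2 371 and 438. Total counts only (4971 and 3179), loess offsets on average log2 CPM (3757 and 3161) and loess offsets on region width (3250 and 2841) put more calls toward high. Weak regions at 13 reads in a sample limit what depth can show.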
